A study of Mus musculus with 6 samples.

Results

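The 10 genes described here belong to the prostaglandin pathway and were followed across the cells of the injured mouse rotator cuff enthesis, the site where tendon inserts into bone. They were taken by gene symbol, 10 of the 32285 genes listed in each matrix, and all 10 were found: Hpgd and Slco2a1, which remove prostaglandins, the cyclooxygenases Ptgs1 and Ptgs2, the terminal enzymes Ptges, Ptges3 and Ptgis, and the prostaglandin E2 (PGE2) receptors Ptger2, Ptger3 and Ptger4. Hpgd had been chosen by its measured CPM, higher in Nlrp3-/- than in wild-type macrophages, so the genotype difference of Hpgd in macrophages and in their subsets is given as a description, with no test.

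Tissue was collected 7 days postinjury (dpi) after rotator cuff tear and repair. The 3 wild-type libraries came from C57BL/6 mice and the 3 Nlrp3-/- libraries from mice without a functional Nlrp3 gene in any cell, the sensor of the NLRP3 inflammasome. No other treatment, and no uninjured tissue, entered these comparisons, and all mice had the same surgery. The mice were adult, and entheses were pooled, with the number of animals behind each library not given, so that the spread between libraries may be partly technical.

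Prostaglandins are short-lived lipid mediators. Phospholipases free arachidonic acid from membranes, the cyclooxygenases turn it into prostaglandin H2, and terminal synthases convert this intermediate to PGE2, prostacyclin, thromboxane or prostaglandin D2. PGE2 acts through G protein-coupled receptors at the cell surface and is known in injured tendon and other wounds for its part in pain, vessel dilation and the recruitment of leukocytes. It is cleared when the carrier encoded by Slco2a1 brings it into cells and 15-hydroxyprostaglandin dehydrogenase, the product of Hpgd, oxidizes it to an inactive form.

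After filtering, 81069 cells remained, from 9346 to 21174 per library, with median depths of 1741 to 6710 unique molecular identifiers (UMIs) per cell and library totals of 97042713 to 134901999 UMIs. Of the barcodes, 684 occurred in more than 1 library. Nlrp3 was at 92.6 to 163 CPM (counts of a gene per 1e+06 UMIs of the summed cells) in wild-type libraries and at 0 UMIs in the 3 Nlrp3-/- libraries. Xist, transcribed in female cells, was at 784 to 945 CPM in Nlrp3-/- libraries and at most 0.101 CPM in wild-type libraries. The Y-linked genes ran the other way: Ddx3y (39.8 to 57.6 CPM) and Eif2s3y (15.6 to 47.1 CPM) were seen in the wild-type libraries with 0 UMIs in the Nlrp3-/- libraries, and Kdm5d and Uty reached 8.68 and 13.9 CPM in wild-type and at most 0.0316 CPM in Nlrp3-/- libraries. Genotype and sex of the animals therefore cannot be told apart in any comparison below. The label of genotype names Nlrp4 for 1 Nlrp3-/- library and Nlrp5 for another, and the groups were taken from the titles. A pair of libraries stood apart. Shallow clusters found mostly in Nlrp3-/- replicate 1 were set aside, with 47.9% of its cells, against 0.503% to 1.53% of the other libraries. Without wild-type replicate 3, the number of genes called between the genotypes in macrophages rose from 57 to 2522.

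Each cell type is named for its resemblance to a marker list: "macrophages" means cells that are macrophage-like, and the other names are meant in the same way. The 10 members and the other eicosanoid genes were left out of the genes used for clustering. In each library the UMIs of all cells of a type were summed, and types with at least 20 cells in every library were tested with the edgeR quasi-likelihood test, with p-values adjusted over all genes tested. Of the members, 10 could be tested in mesenchymal cells, 7 in neutrophils and 7 in macrophages besides Hpgd, and the rest had too few UMIs to pass the filter on low counts. Orders of cell types are over the 10 tested types. Overlap between the groups is judged on CPM, while fold changes are fitted with normalized library sizes. In 15 of 130 member fits between the genotypes the sign was opposite to that of the mean CPM. All 15 had a negative fit (-0.65 to -0.003) and a higher mean CPM in Nlrp3-/- libraries. A lack of overlap is given as a description, without the share of all genes that show it.

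Hpgd (ENSMUSG00000031613) lies on the plus strand of chromosome 8, from 56294585 to 56321043 in mouse build GRCm38 (GENCODE annotation), and is protein-coding. Its promoter is shown because the difference of Hpgd between the genotypes in macrophages chose these genes, and that of Slco2a1 because it is the only other member whose RefSeq window holds TATAAA. Of 9 members with an entry in the RefSeq promoter table (build GRCm38.p6; none for Ptgis), Hpgd and Slco2a1 held TATAAA on either strand within the 300 bases from 250 before to 50 after the start, as did 13.6% of 32851 windows of that length. Both sequences are 5′ to 3′ on the plus strand with TATAAA in capitals, and where the motif lies depends on the annotated start. For Hpgd it starts at 56294556, which is 29 bases before the GENCODE start but 4 bases after the RefSeq start of 56294552. For Slco2a1 it starts 29 bases before the RefSeq start of 103008487, while the GENCODE start, 102988712, lies far upstream. The Hpgd stretch is chr8:56294330-56294579 and the Slco2a1 stretch is chr9:103008237-103008486.
Hpgd: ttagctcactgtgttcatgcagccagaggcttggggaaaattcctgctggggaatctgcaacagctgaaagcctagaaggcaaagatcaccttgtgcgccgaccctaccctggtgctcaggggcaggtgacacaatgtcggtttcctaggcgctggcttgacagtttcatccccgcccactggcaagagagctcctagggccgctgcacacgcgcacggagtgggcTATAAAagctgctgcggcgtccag
Slco2a1: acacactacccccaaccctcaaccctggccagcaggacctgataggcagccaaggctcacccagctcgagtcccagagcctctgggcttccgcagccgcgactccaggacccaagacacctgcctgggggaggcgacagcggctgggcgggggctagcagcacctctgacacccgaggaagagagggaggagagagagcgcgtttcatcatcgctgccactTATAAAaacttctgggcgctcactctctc
The motif CACGTG, an E-box, and TGACGT, the core of a cyclic AMP response element, were found on either strand in the window of Ptgs2 alone among the 9, and in 7.15% and 7.51% of all windows; in Ptgs2 the matches overlap by 2 bases. A GC box, GGGCGG, was in the windows of 7 members and in 35.7% of all windows, and CCAAT in those of Ptger2 and Ptger4 and in 37.4%, again on either strand. A match of letters says nothing about binding in these cells.

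In wild-type tissue Hpgd was a gene of stromal cells. Its level in mesenchymal cells was 66.9, 117 and 23.2 CPM in the 3 wild-type libraries, and in pericytes and smooth muscle cells 10.4, 16.4 and 31.1 CPM. These ranges overlapped. In each of the other 8 types it was at most 5.90 CPM in any wild-type library, and no wild-type plasmacytoid dendritic cell sum held a UMI of Hpgd, against a limit of 3 counts per library. Between 93.7% and 95.7% of the Hpgd UMIs of each wild-type library came from mesenchymal cells. Against the mean of the other types, Hpgd was higher in mesenchymal cells by 6.505 on the log2 scale (SE 0.31, edgeR adjusted p = 7.23e-16) and in pericytes and smooth muscle cells by 4.15 (SE 0.63, edgeR adjusted p = 3.64e-06).

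Within wild-type mesenchymal cells, the Cxcl5 Saa3 fibroblasts, an inflammatory population, held Hpgd at 101, 213 and 67.6 CPM. Dividing mesenchymal cells held 55.3, 96.0 and 6.02 CPM, Pi16 Dpp4 fibroblasts, which resemble a universal fibroblast progenitor, 32.6, 10.1 and 33.1 CPM, and Prg4 synovial lining cells 26.4, 6.94 and 3.76 CPM. Each of these ranges overlapped the next in the order of means. Chondrocytes, too few for a test, were at 131 and 112 CPM in wild-type replicates 1 and 3 but at 5.97 CPM, from 1 UMI, in replicate 2.

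In Nlrp3-/- tissue macrophages held Hpgd as well. In macrophages, phagocytes that clear debris and direct repair, the wild-type libraries were at 1.15, 4.81 and 0.369 CPM and the Nlrp3-/- libraries at 26.2, 38.1 and 31.6 CPM. The groups did not overlap, and the means, 2.11 ± 2.37 and 32.0 ± 5.93 CPM (SD, n = 3 each), differed 15.2-fold. The counts behind them were 154 UMIs of Hpgd in the 3 wild-type and 1913 in the 3 Nlrp3-/- libraries. Macrophages gave 0.901% to 2.79% of the Hpgd UMIs of wild-type libraries and 49.5%, 25.0% and 53.4% of those of Nlrp3-/- libraries. This difference chose the gene, so no p-value is read from it.

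**Figure D1:**
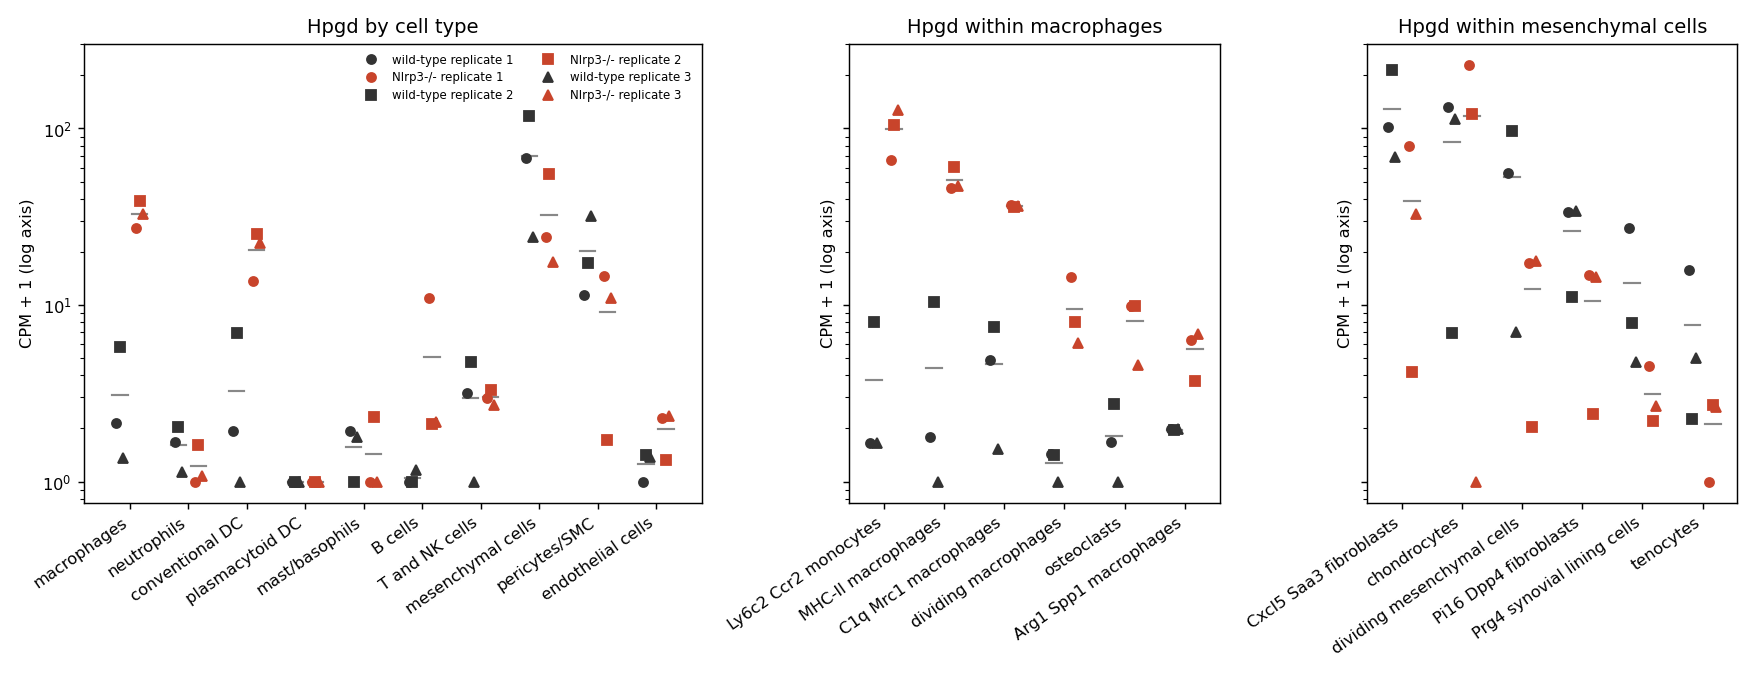
Hpgd in each library as CPM + 1 on a log axis, by cell type (left), within macrophages (middle) and within mesenchymal cells (right); black points are wild-type and red points Nlrp3-/- libraries, the shape gives the replicate and the grey bar the mean. Nlrp3-/- macrophages sit at 26.2 to 38.1 CPM, above all wild-type macrophages (at most 4.81 CPM), and chondrocytes and tenocytes, with under 20 cells in a library, were not tested.

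Every macrophage subset showed the same order of groups in CPM, at very different levels, but in Arg1 Spp1 macrophages 1 Nlrp3-/- library held only 2 UMIs of Hpgd. Ly6c2 Ccr2 monocytes, whose origin was not examined, were at 0.651, 6.98 and 0.661 CPM in wild-type and at 65.5, 104 and 127 CPM in Nlrp3-/- libraries. MHC-II macrophages, which present antigen, were at 0.787, 9.37 and 0 CPM against 44.9, 59.3 and 46.0 CPM. C1q Mrc1 macrophages, which resemble resident and reparative cells, were at 3.91, 6.49 and 0.528 CPM against 35.7, 34.97 and 35.4 CPM. In all 3 subsets each Nlrp3-/- library lay above each wild-type library.

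The remaining subsets were lower. Dividing macrophages had 1, 1 and 0 UMIs of Hpgd in wild-type and 27, 18 and 19 UMIs in Nlrp3-/- libraries, the latter at 13.4, 7.03 and 5.10 CPM. Osteoclasts, the bone-resorbing relatives of macrophages, were at 8.82, 8.92 and 3.59 CPM in Nlrp3-/- libraries and at most 1.76 CPM in wild-type. Arg1 Spp1 macrophages were at 5.32, 2.70 and 5.82 CPM in Nlrp3-/- and at 0.979, 0.951 and 0.980 CPM in wild-type libraries. These come from 17, 2 and 20 against 3, 4 and 2 UMIs, so the order in this subset is uncertain for Nlrp3-/- replicate 2. Within the knockout the monocytes thus lay above the Arg1 Spp1 macrophages in all 3 libraries, with no overlap of their ranges. With all 6 subsets weighted equally, the macrophage level was 1.24, 4.33 and 0.362 CPM in wild-type and 28.9, 36.1 and 37.1 CPM in Nlrp3-/- libraries.

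Free RNA and other cells carry Hpgd as well. Barcodes with at most 100 UMIs held Hpgd at 16.9, 33.9 and 8.25 CPM in wild-type and at 12.3, 25.3 and 11.4 CPM in Nlrp3-/- libraries, so the groups overlapped and wild-type replicate 2 was highest, as it was among wild-type macrophages. The 10 mesenchymal markers summed to 260, 523 and 517 CPM in wild-type and to 400, 692 and 1136 CPM in Nlrp3-/- macrophages, which overlapped. Of the marker lists of 14 other cell types, 2 lay lower and 3 higher in Nlrp3-/- macrophages without overlap between the groups. Markers of neutrophils (2892, 1531 and 2112 against 823, 1096 and 1260 CPM) and of T and NK cells (39.9 to 75.6 against 26.1 to 31.8 CPM) were lower in all 3 Nlrp3-/- libraries. Those of hematopoietic progenitors (53.6 to 68.9 against 76.8 to 99.6 CPM), pericytes and smooth muscle cells (28.8 to 35.5 against 38.3 to 56.2 CPM) and plasmacytoid dendritic cells (80.4 to 127 against 129 to 153 CPM) were higher. Their part in the Hpgd difference was not tested. For each 1000 CPM of the mesenchymal markers, Hpgd stood at 65.6, 55.0 and 27.8 CPM in Nlrp3-/- macrophages and at 0.297, 0.705 and 0.191 CPM in the mesenchymal cells of the same libraries. In wild-type libraries it stood at 4.43, 9.19 and 0.713 CPM in macrophages and at 1.45, 2.33 and 0.237 CPM in mesenchymal cells. The 10 markers do not include those that named chondrocytes, and the part of mesenchymal cells in macrophage Hpgd was not tested. With 10% of each sum removed in the proportions of free RNA, the log2 fold change of Hpgd in macrophages, 3.63 as fitted, was 5.56, and over the other alternatives it ran from 3.17 to 5.15.

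Conventional dendritic cells (cDCs), close relatives of macrophages that prime T cells, had 2, 15 and 0 UMIs of Hpgd in wild-type and 10, 29 and 33 UMIs in Nlrp3-/- libraries. That is 0.935, 5.90 and 0 CPM against 12.6, 24.1 and 21.5 CPM, with no overlap. Free RNA held Hpgd at 16.9, 33.9 and 8.25 against 12.3, 25.3 and 11.4 CPM. In cDCs neutrophil markers were lower in Nlrp3-/- libraries without overlap (2519, 1035 and 1091 against 331, 776 and 985 CPM). Markers of pericytes and smooth muscle cells (17.6 to 21.3 against 22.7 to 28.7 CPM), hematopoietic progenitors, plasmacytoid dendritic cells and Schwann cells were higher without overlap. Their part in the Hpgd difference was not tested. The difference of 2.61 on the log2 scale (SE 0.61) missed the threshold (edgeR adjusted p = 0.081). The filter on low counts asked for 6.91 CPM in 3 libraries here, which all 3 Nlrp3-/- libraries and no wild-type library reached, so Hpgd entered the test only through the group where it was high and the p-value is no support for a difference. Under that filter it passed without wild-type replicate 2 (4.76) or wild-type replicate 3 (2.18) and under 3 other settings (2.73 to 3.89), and these have the same limit. Without wild-type replicate 3, calls over all genes in cDCs rose from 33 to 662 of 8885 tested. B cells had 0, 0 and 1 UMIs in wild-type and 7, 6 and 3 UMIs in Nlrp3-/- libraries and were below the filter. With no filter on low counts Hpgd passed in cDCs (log2 fold change 2.57, edgeR adjusted p = 4.25e-07) and in B cells (4.21, SE 1.14, edgeR adjusted p = 0.0242). That setting called 488 of 16702 genes in cDCs and 216 of 18312 in B cells, against 33 and 28 with the filter. The B cell call rests on the few UMIs given above. In neutrophils Hpgd had at most 14 UMIs in any library.

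In mesenchymal cells Hpgd was at 23.3, 54.1 and 16.5 CPM in Nlrp3-/- libraries, against the 66.9, 117 and 23.2 CPM of wild-type, and the groups overlapped. The log2 fold change of -1.17 (SE 0.66) did not pass the test (edgeR adjusted p = 0.45), and with 1 library left out it ran from -1.88 (without Nlrp3-/- replicate 2) to -0.56 (without wild-type replicate 2). The cells behind it differed: chondrocytes made up 30.8% of the mesenchymal cells of Nlrp3-/- replicate 2 and gave 1706 of its 1738 mesenchymal Hpgd UMIs, while they were 0.534% to 7.10% in the other libraries. Cxcl5 Saa3 fibroblasts were 34.6%, 41.5% and 13.7% of the mesenchymal cells in wild-type and 3.78%, 9.93% and 17.3% in Nlrp3-/- libraries. The part of these shares in the Hpgd level was not tested. In Prg4 synovial lining cells, which make the lubricating layer of joints and sheaths, the Nlrp3-/- libraries were at 3.53, 1.19 and 1.69 CPM, all below the wild-type libraries (log2 fold change -2.78, SE 0.80, edgeR adjusted p = 0.18). The Nlrp3-/- values came from 5, 4 and 6 UMIs, and free RNA of these libraries held Hpgd at 12.3, 25.3 and 11.4 CPM. In Cxcl5 Saa3 fibroblasts the Nlrp3-/- libraries were at 78.6, 3.20 and 31.7 CPM and overlapped the wild-type (log2 fold change -2.15, SE 0.77, edgeR adjusted p = 0.26). The groups also overlapped in dividing mesenchymal cells (log2 fold change -2.25, SE 0.87, edgeR adjusted p = 0.36). The same held for Pi16 Dpp4 fibroblasts (log2 fold change -1.25, SE 0.54, edgeR adjusted p = 0.37). Pericytes and smooth muscle cells were at 13.6, 0.731 and 9.93 CPM (log2 fold change -1.18, SE 0.61, edgeR adjusted p = 0.42), with -1.83 without Nlrp3-/- replicate 1, -0.77 without wild-type replicate 3 and -0.72 without Nlrp3-/- replicate 2. In Nlrp3-/- replicate 1 this type held 772 cells at a median of 1463.5 UMIs. The other libraries held 78 to 170 such cells at medians of 8299 to 10905.5 UMIs.

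Across the 26 named types and subsets of the wild-type libraries, the 5 genes whose mean log2(CPM + 1) was most like that of Hpgd were Rspo3 (Pearson r = 0.96), Bdnf, Unc5c, Tbx15 and Ddit4l (r = 0.94 for each), among 10361 genes at 20 CPM or more in at least 1 of them. Rspo3 encodes an enhancer of Wnt signalling. The points share libraries, and the subsets are part of their types, so these are descriptions only.

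Slco2a1, the prostaglandin carrier (ENSMUSG00000032548, chromosome 9, 102988712 to 103096002), was a gene of endothelium. Endothelial cells held it at 116, 132 and 240 CPM in wild-type and 195, 363 and 200 CPM in Nlrp3-/- libraries, and 83.4% to 91.2% of its UMIs in every library came from them. Wild-type pericytes and smooth muscle cells followed at 7.16, 2.19 and 22.8 CPM, without overlap with endothelium, and macrophages held at most 0.457 CPM in any library. Against the mean of the other types it was higher in endothelial cells by 8.49 (log2, SE 0.26, edgeR adjusted p = 1.31e-18). Carrier and dehydrogenase were thus highest in different cells of the wild-type tissue. Between the genotypes, endothelial Slco2a1 overlapped (log2 fold change 0.49, SE 0.27, edgeR adjusted p = 0.30), and the test was passed without wild-type replicate 3 (0.81, edgeR adjusted p = 0.0346) and without a filter on low counts (0.49, edgeR adjusted p = 0.0417), while the value was 0.32 without wild-type replicate 1 and 0.19 without Nlrp3-/- replicate 2. Over all genes 76 were called in endothelial cells as reported, 2688 of 11650 without wild-type replicate 3 and 1236 of 18872 with no filter. In mesenchymal cells it was at 3.31, 4.61 and 2.23 CPM in wild-type and 2.20, 2.15 and 1.90 CPM in Nlrp3-/- libraries, with no overlap and a log2 fold change of -0.76 (SE 0.30, edgeR adjusted p = 0.39).

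Ptgs1, the constitutive cyclooxygenase COX-1 (ENSMUSG00000047250, chromosome 2, 36230426 to 36252272), was highest in neutrophils. These short-lived phagocytes held it at 43.5, 38.9 and 47.2 CPM in wild-type and 26.9, 61.8 and 57.0 CPM in Nlrp3-/- libraries. Wild-type endothelial cells followed at 24.5, 21.4 and 24.9 CPM and mast cells and basophils at 13.7, 7.71 and 14.9 CPM, and none of these 3 ranges overlapped its neighbour. Macrophages were at 2.36 to 6.33 CPM in all libraries.

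Within neutrophils Ptgs1 was ordered by maturation. In wild-type libraries dividing precursors were at 63.6, 64.8 and 68.0 CPM, granule-rich neutrophils at 27.5, 23.0 and 26.7 CPM and mature neutrophils at 10.1, 14.1 and 17.2 CPM, without overlap between any of them. The Nlrp3-/- libraries followed the same order, at 42.5, 72.0 and 77.6, then 17.7, 28.4 and 25.6, then 6.81, 15.7 and 5.15 CPM. The genotype difference in all neutrophils was -0.14 (log2, SE 0.24, edgeR adjusted p = 0.80), a fitted sign opposite to that of the mean levels, which were 43.2 CPM in wild-type and 48.5 CPM in Nlrp3-/- libraries. In endothelial cells the Nlrp3-/- libraries, at 32.0, 39.4 and 35.1 CPM, lay above the wild-type ones, but the log2 fold change of 0.43 (SE 0.14) did not pass (edgeR adjusted p = 0.14). In C1q Mrc1 macrophages they lay below, at 4.27, 8.01 and 7.17 against 11.0, 10.2 and 8.44 CPM (log2 fold change -0.70, SE 0.26, edgeR adjusted p = 0.24).

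**Figure D2:**
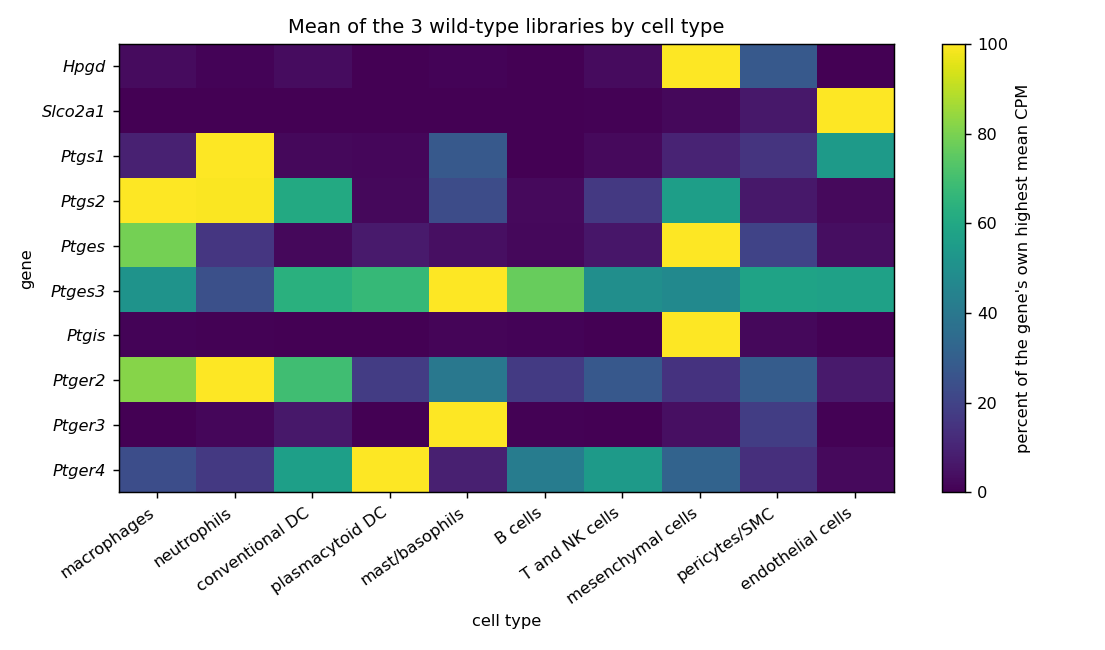
Mean CPM of the 3 wild-type libraries for each of the 10 members (rows) in the 10 tested cell types (columns), as a percent of the highest mean in the row, so that colours compare types within a gene and not genes. Hpgd and Ptgis peak in mesenchymal cells, Slco2a1 in endothelial cells, Ptgs1 in neutrophils, Ptger3 in mast cells and basophils and Ptger4 in plasmacytoid dendritic cells, while Ptges3 is spread over all types.

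Ptgs2, the inducible cyclooxygenase COX-2 (ENSMUSG00000032487, chromosome 1, 150100031 to 150108227), was higher than the mean of the other wild-type types in neutrophils, by 4.18 on the log2 scale (SE 0.24, edgeR adjusted p = 6.20e-15), in macrophages, by 2.89 (SE 0.25, edgeR adjusted p = 6.47e-11), and also in mesenchymal cells and cDCs. Its level differed widely between libraries of 1 group. In macrophages it was at 61.5, 93.1 and 432 CPM in wild-type and 289, 108 and 135 CPM in Nlrp3-/- libraries. In neutrophils it was at 77.2, 267 and 239 CPM and at 600, 43.0 and 71.3 CPM. In mesenchymal cells it was at 61.2, 53.9 and 214 CPM and at 77.9, 97.5 and 136 CPM. Wild-type replicate 3 and Nlrp3-/- replicate 1 were the highest of their groups in macrophages and cDCs, and the groups overlapped in every type.

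Free RNA varied alongside. Barcodes with at most 100 UMIs held Ptgs2 at 53.3, 85.2 and 204 CPM in wild-type and at 151, 62.0 and 87.6 CPM in Nlrp3-/- libraries, with the same library highest in each group as among macrophages. A set of 10 early response genes, picked after these levels were seen as a sign of handling stress (Fos, Jun, Egr1 and others), summed to 5164, 4607 and 6926 CPM in wild-type and 5895, 5812 and 5722 CPM in Nlrp3-/- macrophages. In neutrophils the set summed to 3453, 5084 and 4201 CPM and to 5311, 2669 and 2673 CPM, with the same library highest in each group as for Ptgs2, and this was so in cDCs too. It was not so in wild-type mesenchymal cells (1523, 1913 and 1709 CPM) or wild-type mature neutrophils (9673, 10990 and 9321 CPM). There the set was highest in replicate 2 and Ptgs2 in replicate 3. In the Nlrp3-/- libraries of both, the same library was highest for the set and Ptgs2. Its part in the Ptgs2 levels was not tested. Endothelial cells, B cells and plasmacytoid dendritic cells were at most 7.93 CPM in wild-type libraries, far under the free RNA of the same libraries.

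Within neutrophils Ptgs2 ran against Ptgs1. Mature neutrophils held 356, 707 and 764 CPM in wild-type and 2126, 549 and 563 CPM in Nlrp3-/- libraries, granule-rich neutrophils 7.74 to 22.7 CPM and dividing precursors 5.57 to 20.6 CPM over all 6. Mature cells were 50.4% to 70.4% of wild-type neutrophils and 50.5%, 21.7% and 31.5% of Nlrp3-/- neutrophils, a share that enters the level of all neutrophils. Within mature neutrophils the genotype difference was 0.85 (log2, SE 0.59, edgeR adjusted p = 0.82), or 0.48 with a replicate block, and within all neutrophils 0.16 (SE 0.96, edgeR adjusted p = 0.96). In all neutrophils it turned to -2.08 without Nlrp3-/- replicate 1.

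Among macrophage subsets, wild-type Ptgs2 was highest on average in Arg1 Spp1 macrophages (55.8, 175 and 1139 CPM) and Ly6c2 Ccr2 monocytes (103, 137 and 694 CPM), whose ranges overlapped. It was lower in C1q Mrc1 macrophages (33.4, 29.4 and 136 CPM) and osteoclasts (27.8, 33.3 and 46.0 CPM). Between the genotypes, Ptgs2 in macrophages differed by -0.22 (log2, SE 0.67, edgeR adjusted p = 0.87), in mesenchymal cells by -0.14 (SE 0.55, edgeR adjusted p = 0.91) and in cDCs by 0.13 (SE 0.65, edgeR adjusted p = 0.94). The errors were as large as or larger than these differences, and without wild-type replicate 3 the value in macrophages was 1.02. The 5 genes most like Ptgs2 over the 26 wild-type types and subsets were Slc16a3, a lactate exporter (r = 0.77), C130050O18Rik, Notch2, Tgfbi and Metrnl (r = 0.75 to 0.76).

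**Figure D3:**
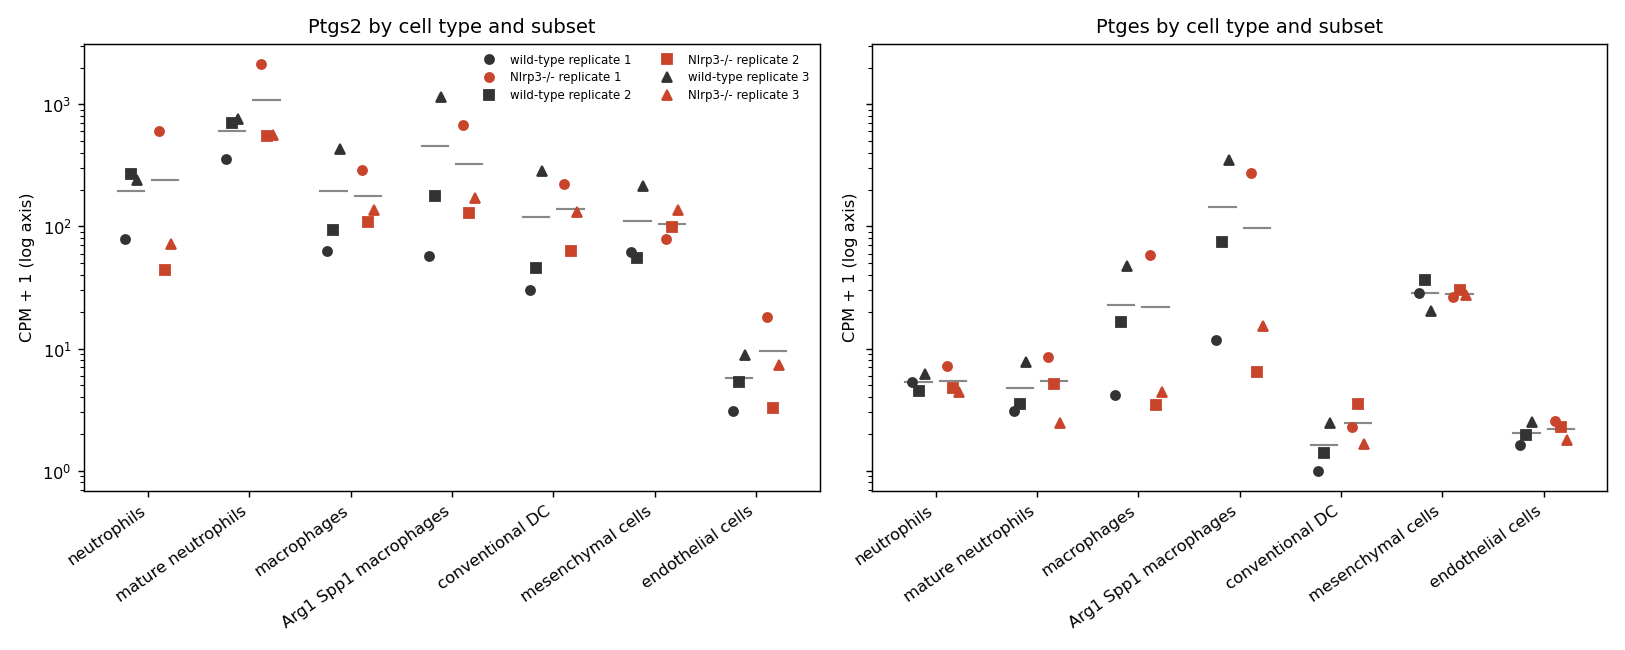
Ptgs2 (left) and Ptges (right) in each library as CPM + 1 on a log axis, in 5 types and 2 subsets; black points are wild-type and red points Nlrp3-/- libraries, the shape gives the replicate and the grey bar the mean. In Arg1 Spp1 macrophages both genes are highest in wild-type replicate 3 (1139 and 346 CPM) and Nlrp3-/- replicate 1 (673 and 271 CPM), and the groups overlap.

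Ptges, the inducible microsomal PGE2 synthase that works with COX-2 (ENSMUSG00000050737, chromosome 2, 30889471 to 30929863, minus strand), was found in mesenchymal cells at 27.4, 35.2 and 19.4 CPM in wild-type and 25.5, 29.0 and 26.3 CPM in Nlrp3-/- libraries, which overlapped (log2 fold change -0.07, SE 0.22, edgeR adjusted p = 0.88). In macrophages it ranged from 3.16, 15.6 and 46.0 CPM in wild-type to 57.3, 2.47 and 3.44 CPM in Nlrp3-/- libraries (log2 fold change -0.09, SE 1.19, edgeR adjusted p = 0.97). The level was highest in 1 subset. Arg1 Spp1 macrophages held Ptges at 10.8, 73.0 and 346 CPM in wild-type and 271, 5.40 and 14.3 CPM in Nlrp3-/- libraries, while MHC-II macrophages were at most 16.3 CPM and the other 4 tested subsets at most 5.95 CPM in any library. The log2 fold change in that subset was -0.45 (SE 1.21, edgeR adjusted p = 0.91), and -1.91 with a replicate block (SE 1.95, edgeR adjusted p = 0.82). A list of 10 low oxygen response genes, also picked after these levels were seen, summed in the same cells to 1697, 2278 and 3201 CPM in wild-type and 3466, 2058 and 2468 CPM in Nlrp3-/- libraries, highest in the same 2 libraries. Of these genes 5 are markers that named the subset, and their part in the Ptges levels was not tested.

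Ptgis, the prostacyclin synthase (ENSMUSG00000017969, chromosome 2, 167191805 to 167240604, minus strand), was found in mesenchymal cells, which gave 97.0% to 99.05% of its UMIs in every library. The level there was 63.7, 29.8 and 57.9 CPM in wild-type and 39.2, 138 and 36.2 CPM in Nlrp3-/- libraries, and each other tested type was at most 4.59 CPM in any library. Chondrocytes held 310, 221 and 308 CPM in wild-type and 202, 246 and 373 CPM in Nlrp3-/- libraries. Nlrp3-/- replicate 2, highest in all mesenchymal cells, is the library with 30.8% chondrocytes. The log2 fold change in mesenchymal cells was 0.46 (SE 0.58, edgeR adjusted p = 0.70) and turned to -0.50 without that library.

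Ptges3, the cytosolic PGE2 synthase that is also the p23 co-chaperone of HSP90 (ENSMUSG00000071072, chromosome 10, 128058954 to 128077272), was found in every type. Its wild-type means ran from 93.2 ± 21.5 CPM in neutrophils to 379 ± 17.1 CPM (SD, n = 3 each) in mast cells and basophils, and among macrophages it was highest in dividing cells, at 290, 371 and 397 CPM. In neutrophils the wild-type libraries were at 76.7, 85.5 and 117 CPM and the Nlrp3-/- libraries at 135, 190 and 154 CPM. They did not overlap, yet the log2 fold change of 0.50 (SE 0.15) failed the correction (edgeR adjusted p = 0.26). The dividing precursors, where Ptges3 is higher, were 7.99% to 15.9% of wild-type and 18.9% to 29.5% of Nlrp3-/- neutrophils. The part of this share in the difference was not tested. Within the dividing precursors the log2 fold change was 0.34 (SE 0.13, edgeR adjusted p = 0.21). It was 0.57 in granule-rich neutrophils (SE 0.28, edgeR adjusted p = 0.38) and 0.35 in mature neutrophils (SE 0.34, edgeR adjusted p = 0.87). In macrophages it was 0.15 (SE 0.11, edgeR adjusted p = 0.46). Mast cells and basophils, pericytes and smooth muscle cells and mesenchymal cells also had each Nlrp3-/- library above each wild-type library, with log2 fold changes of 0.09, 0.32 and 0.26 that did not pass (edgeR adjusted p = 0.80, 0.38 and 0.43). The pericytes and smooth muscle cells of Nlrp3-/- replicate 1 were the shallow cells described for Hpgd. Free RNA held Ptges3 at 127, 159 and 188 CPM in wild-type and 203, 222 and 197 CPM in Nlrp3-/- libraries, also without overlap. It lay above the neutrophil level in every library, and its part in these differences was not tested.

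Ptger4, the receptor EP4 that raises cyclic AMP (ENSMUSG00000039942, chromosome 15, 5206661 to 5244187, minus strand), was highest in plasmacytoid dendritic cells, at 53.0, 68.8 and 107 CPM in wild-type and 132, 156 and 158 CPM in Nlrp3-/- libraries. Every Nlrp3-/- library lay above the wild-type ones, at a log2 fold change of 0.86 (SE 0.25, edgeR adjusted p = 0.15) that passed the test without wild-type replicate 3 (1.17, edgeR adjusted p = 0.0110). Without that library, calls over all genes in these cells rose from 19 to 368 of 4632 tested. Wild-type cDCs were at 32.7, 40.9 and 55.1 CPM, T and NK cells at 30.6, 45.1 and 49.1 CPM and B cells at 30.004, 18.1 and 48.1 CPM, and each of these overlapped its neighbour in the order. In B cells the Nlrp3-/- libraries, at 52.9, 54.2 and 45.6 CPM, overlapped the wild-type ones (log2 fold change 0.49, SE 0.27, edgeR adjusted p = 0.67), and here too the test was passed without wild-type replicate 3 (0.85, edgeR adjusted p = 0.0376). Calls over all genes in B cells then rose from 28 to 617 of 10033 tested. Endothelial cells were lowest, at 2.097, 2.08 and 1.89 CPM in wild-type and 3.87, 2.89 and 3.26 CPM in Nlrp3-/- libraries, which did not overlap (log2 fold change 0.54, SE 0.33, edgeR adjusted p = 0.35), and only the Nlrp3-/- libraries carried the gene past the filter. Dividing neutrophil precursors did not overlap either, at 5.46, 5.87 and 8.79 against 12.8, 14.9 and 11.9 CPM (log2 fold change 0.68, SE 0.20, edgeR adjusted p = 0.13). In macrophages Ptger4 was at 16.1, 19.9 and 17.9 CPM in wild-type and 16.8, 20.6 and 22.7 CPM in Nlrp3-/- libraries, with means of 18.0 and 20.02 CPM and a log2 fold change fitted on the opposite side of 0, at -0.01 (SE 0.14, edgeR adjusted p = 0.97). Within them it was at 22.2 to 41.9 CPM in MHC-II and C1q Mrc1 macrophages and at 1.86 to 5.44 CPM in osteoclasts.

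Ptger2, the receptor EP2 that also raises cyclic AMP (ENSMUSG00000037759, chromosome 14, 44988195 to 45003820), was low in all types. It stood at 5.16, 7.00 and 8.37 CPM in wild-type and 14.5, 7.34 and 7.28 CPM in Nlrp3-/- neutrophils (log2 fold change 0.23, SE 0.35, edgeR adjusted p = 0.78) and at 4.31, 5.16 and 7.31 CPM against 7.96, 6.64 and 7.56 CPM in macrophages (log2 fold change 0.26, SE 0.19, edgeR adjusted p = 0.47). The value in macrophages was 0.14 without wild-type replicate 1, 0.17 without Nlrp3-/- replicate 1 and 0.43 without wild-type replicate 3. Endothelial cells were at most 1.60 CPM. Against the mean of the other wild-type types it was higher in neutrophils by 2.80 (SE 0.25, edgeR adjusted p = 8.29e-11) and in macrophages by 1.70 (SE 0.26, edgeR adjusted p = 2.63e-06), on the log2 scale.

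Ptger3, the receptor EP3 that lowers cyclic AMP (ENSMUSG00000040016, chromosome 3, 157566892 to 157645888), was the rarest member, with 448 UMIs in all named cells. It was highest in mast cells and basophils, granulocytes of allergy, at 14.6, 5.99 and 20.4 CPM in wild-type and 6.35, 37.2 and 20.5 CPM in Nlrp3-/- libraries (log2 fold change 0.55, SE 0.46, edgeR adjusted p = 0.57). Among the tested types, wild-type pericytes and smooth muscle cells came next, at 0.651, 1.64 and 5.19 CPM, and did not overlap them. Erythrocytes, too few for a test, were at 8.10, 5.93 and 1.29 CPM from 5, 2 and 1 UMIs in wild-type libraries and did overlap them. Macrophages had Ptger3 at no more than 0.127 CPM in any library. The highest wild-type means of these 3 PGE2 receptors were in 3 different leukocyte types, although for Ptger2 and Ptger4 that type overlapped the next in order.

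**Figure D4:**
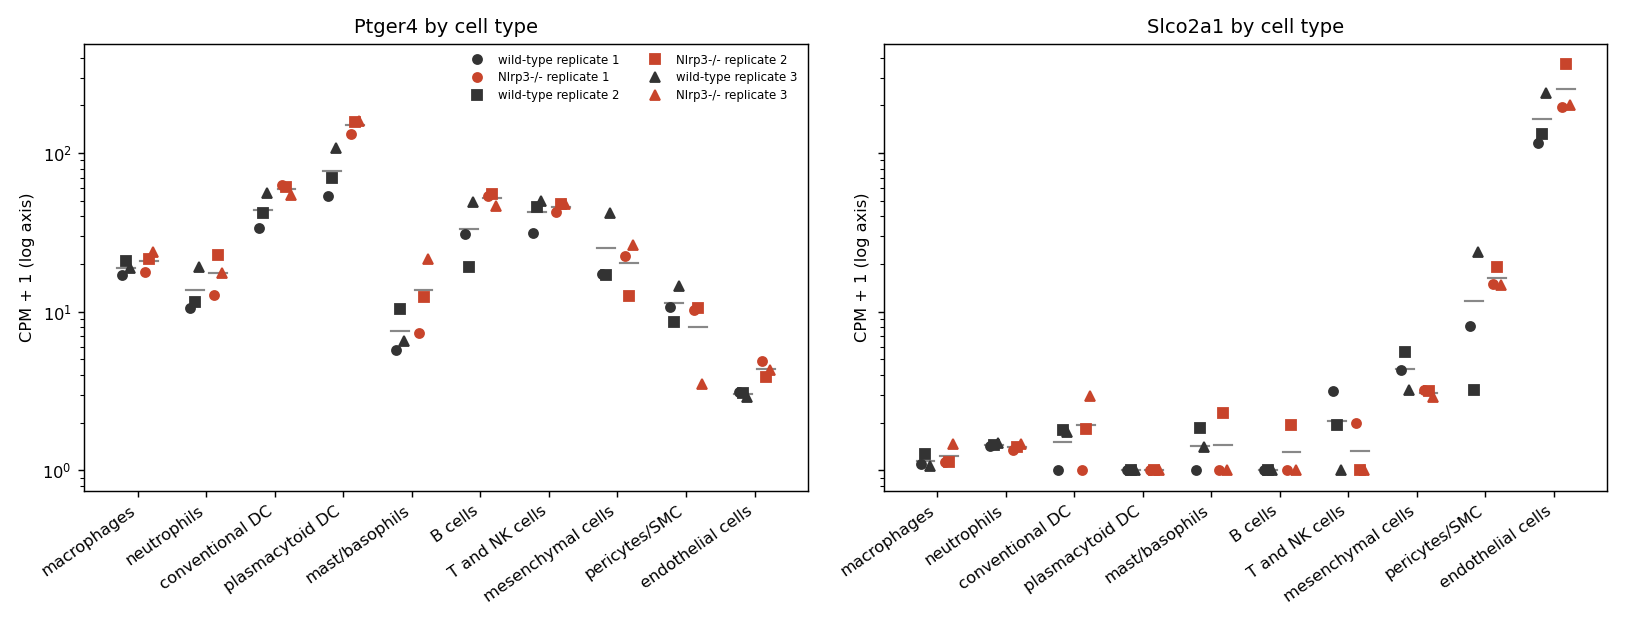
Ptger4 (left) and Slco2a1 (right) in each library as CPM + 1 on a log axis across the 10 tested types; black points are wild-type and red points Nlrp3-/- libraries, the shape gives the replicate and the grey bar the mean. Ptger4 is highest in plasmacytoid dendritic cells (53.0 to 158 CPM) and lowest in endothelial cells, where Slco2a1 is highest (116 to 363 CPM).

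Counted together, 29 of the 100 pairs of a member and a cell type were higher than the mean of the other wild-type types and 16 were lower by the edgeR test. Over all genes tested, 29% of such pairs were higher and 23% lower, so the share of pairs higher was that of all genes and the share lower was below it. Between the genotypes none of the 7 members tested besides Hpgd passed in macrophages, where 0.447% of all genes tested were called, none of 7 in neutrophils (0.36% of all genes) and none of 10 in mesenchymal cells (0.103%). In the other 7 types none of 27 pairs passed (0.374% of all tests there), and in the 13 subsets none of 73, leaving out Hpgd in macrophage subsets (0.437%). At an unadjusted p under 0.05 there were 0, 1, 1, 3 and 12 of them, beside 19.4%, 14.6%, 12.6%, 14.8% and 14.7% of all genes in the same sets of tests, and DESeq2, run on the 10 types, called none. The median log2 fold change of the members tested was -0.01 for macrophages, 0.16 for neutrophils and 0.08 for mesenchymal cells, and over all genes it was 0.01, 0.02 and 0.04. The genotype effect also differed between macrophages, neutrophils and mesenchymal cells for none of 26 member and pair tests (0.0069% over all genes), leaving out Hpgd with macrophages.

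**Figure D5:**
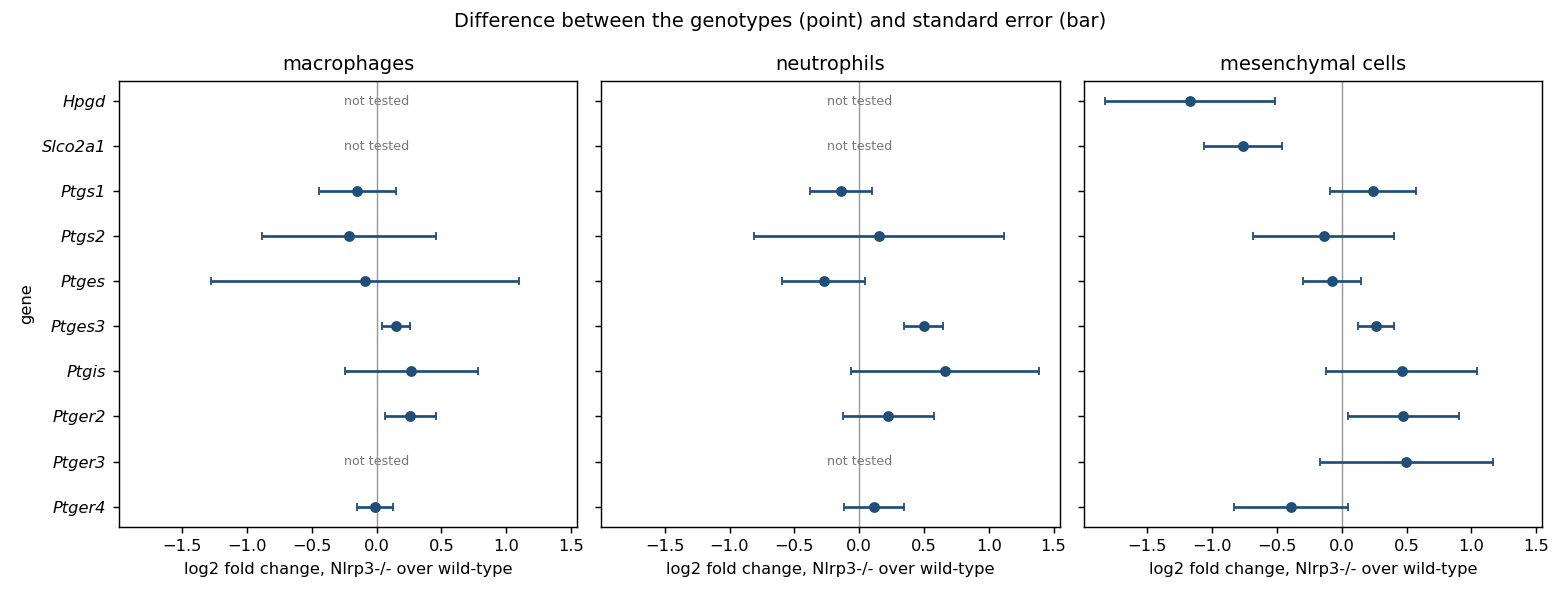
Log2 fold change of Nlrp3-/- over wild-type libraries (points) with its standard error (bars) for the 10 members in macrophages, neutrophils and mesenchymal cells; Hpgd in macrophages chose the gene and is not tested, and the other members marked so were too rare. In none of the 3 types did a member pass an adjusted p of 0.05, and the widest bars are those of Ptges in macrophages (SE 1.19) and Ptgs2 in neutrophils (SE 0.96).

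The remaining eicosanoid genes, a list of 42 in 6 roles, gave 0 higher and 0 lower of 28 tested in macrophages, of 24 in neutrophils and of 36 in mesenchymal cells by edgeR, with 5, 2 and 3 at an unadjusted p under 0.05, beside 19.4%, 14.6% and 12.6% of all genes tested there. Pla2g4a, the cytosolic phospholipase that frees arachidonic acid, and Hpgds, the hematopoietic prostaglandin D2 synthase, are named after their values were seen: in macrophages Pla2g4a was at 15.3, 16.1 and 24.1 CPM in wild-type and 34.5, 32.1 and 31.2 CPM in Nlrp3-/- libraries (log2 fold change 0.67, SE 0.16, edgeR adjusted p = 0.13). Hpgds was at 24.2, 25.9 and 31.5 against 41.8, 37.7 and 42.6 CPM (log2 fold change 0.43, SE 0.12, edgeR adjusted p = 0.15). Neither pair of groups overlapped. Within the subsets 1 gene passed: Fpr2, a receptor for lipoxins and formylated peptides, was at 31.5, 26.6 and 25.1 CPM in wild-type and at 12.7, 6.31 and 11.9 CPM in Nlrp3-/- MHC-II macrophages, lower in all 3 libraries (log2 fold change -1.52, SE 0.25, edgeR adjusted p = 0.0235). It was 1 of 23 list genes tested in that subset, where 46 of all 9202 genes tested were called, and 1 of 261 tests of list genes over the 13 subsets, where 0.437% of all tests were called. Fpr2 is also expressed by neutrophils. The summed level of the 10 neutrophil markers in MHC-II macrophages was 2150, 1105 and 1648 CPM in wild-type and 502, 838 and 1087 CPM in Nlrp3-/- libraries, without overlap and in the direction of Fpr2, with none of the 10 at 0. Markers of platelets and megakaryocytes (2466, 3401 and 1413 against 1026, 409 and 1012 CPM) and of mast cells and basophils were also lower without overlap. The list of platelets and megakaryocytes shares Pf4 with that of C1q Mrc1 macrophages, and 4 of its 10 genes were at 0 in all libraries. Markers of plasmacytoid dendritic cells, hematopoietic progenitors and pericytes and smooth muscle cells were higher without overlap. Their part in the Fpr2 difference was not tested.

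The most abundant list gene of each role is given in the tested type where its level was highest. Alox5ap, the activating protein of 5-lipoxygenase, was at 861 to 1088 CPM in wild-type and 813 to 1007 CPM in Nlrp3-/- neutrophils. Akr1b3, an aldose reductase that can form prostaglandin F2α, was at 131 to 191 and 110 to 151 CPM in B cells. Plaat3, a phospholipase, was at 117 to 146 and 109 to 131 CPM in T and NK cells, and Ptgr1, which reduces prostaglandin and leukotriene metabolites, at 68.0 to 91.5 and 60.1 to 87.0 CPM in B cells. Tbxa2r, the thromboxane receptor, was at 61.5 to 98.7 and 71.8 to 95.0 CPM in plasmacytoid dendritic cells, and Ppard, a nuclear receptor for fatty acids, at 29.3 to 33.2 and 30.7 to 35.4 CPM in pericytes and smooth muscle cells. In all 6 the ranges of the groups overlapped.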

How the data were processed

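Single-cell RNA libraries (10x Genomics, 3′ end counts) were made from entheses at 7 dpi, 3 wild-type and 3 Nlrp3-/-. The authors deposited raw UMI counts per gene and barcode, unfiltered and not normalized. The submitters' processing notes name Cell Ranger 2.1.1 and mm10, while the matrix headers name a later release, so the counting version is unsettled. Groups were taken from the titles.

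Barcodes with at least 500 UMIs were tested against free RNA (barcodes with at most 100 UMIs, 10000 simulations, false discovery rate 0.01), and cells with under 200 genes or over 10% mitochondrial UMIs were removed. Doublets were scored with Scrublet (scanpy 1.11.5), and 0.8% per 1000 cells with the highest scores were removed. Cells were clustered (2000 variable genes without the eicosanoid genes, 30 components, 15 neighbours, leidenalg 0.10.2 at resolution 1) and named from marker lists, and a cluster was set aside when 1 library gave more than 75% of it and its cells there were shallower than that library's median. UMIs were summed per library and type and tested with the edgeR 4.0.16 quasi-likelihood test (TMM, filterByExpr; R 4.3.3), with Benjamini-Hochberg adjustment and a threshold of 0.05. A type was set against the mean of the other types in the wild-type libraries. The tests were run on simulated data before use.

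All 10 members are named, and of the other 42 eicosanoid genes those that passed between the genotypes and the most abundant of each role. Pla2g4a and Hpgds were added after their values were seen. The members, lists and tests were chosen with earlier results of these data known. Alternatives were RLE size factors, no filter, DESeq2 1.42.0, other cell and doublet limits, free RNA subtraction, clustering at resolution 2, set-aside clusters kept, a replicate block and each library left out. P-values measure the spread between these libraries, and counts of 0 are read against a limit of 3 UMIs, which covers counting error only. Python 3.11.15 was used.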

Additional observations from a re-analysis of the deposited data

Results flagged for a closer look

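In the cells below the libraries of the genotypes did not overlap, and Hpgd and Ptgs1 each lay on opposite sides in different cells. The difference between the cells was not tested, and no value given here with an edgeR adjusted p passed. The share of all genes whose libraries do not overlap is not given, so the lack of overlap is a description and no result about the members. Values are the log2 ratio of the mean CPM of Nlrp3-/- over wild-type libraries. Hpgd was higher in all 3 Nlrp3-/- libraries in conventional dendritic cells (3.09, edgeR adjusted p = 0.081), in macrophages (3.92), and within macrophages in C1q Mrc1 macrophages (3.28), MHC-II macrophages (3.89), Ly6c2 Ccr2 monocytes (5.16) and osteoclasts (3.13). It was lower in all 3 in Prg4 synovial lining cells (-2.53, edgeR adjusted p = 0.18). These cells held 78, 35 and 11 UMIs of Hpgd in wild-type and 5, 4 and 6 UMIs in Nlrp3-/- libraries. Free RNA held Hpgd at 8.25 to 33.9 CPM over all libraries. The macrophage values chose the gene and have no test, and in conventional dendritic cells only the Nlrp3-/- libraries carried Hpgd past the filter on low counts, so that p-value supports no difference. Ptgs1 was higher in all 3 Nlrp3-/- libraries in endothelial cells (0.59, edgeR adjusted p = 0.14) and in dividing mesenchymal cells (0.88, edgeR adjusted p = 0.43) and lower in all 3 in C1q Mrc1 macrophages (-0.61, edgeR adjusted p = 0.24). Dividing mesenchymal cells held 9, 37 and 12 UMIs of Ptgs1 in wild-type and 9, 10 and 32 UMIs in Nlrp3-/- libraries. Their means, 2.75 and 5.06 CPM, lay below free RNA, which held Ptgs1 at 9.32 to 17.4 CPM over all libraries.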

How the results depend on the processing

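Over 25 fold changes of the members and 335 comparisons with an alternative, 301 kept their direction and side of the threshold, 9 passed it and 25 changed sign. Among macrophages, neutrophils and mesenchymal cells 0 members passed under each of the 16 alternatives, leaving out Hpgd in macrophages, which chose the gene and is not counted. In the other 7 types the count went from 0 to 1 with 2 times as many doublets removed, 1 with 10% free RNA subtracted, 1 at resolution 2 and 4 with no filter on low counts (Hpgd in conventional dendritic cells and B cells, Slco2a1 in endothelial cells and Ptgs2 in pericytes and smooth muscle cells), and it ran from 0 to 4 with 1 library left out, with 1 without wild-type replicate 2 and 4 without wild-type replicate 3. With wild-type replicate 3 left out, calls over all genes went from 28 to 617 in B cells and from 33 to 662 in conventional dendritic cells. They went from 76 to 2688 in endothelial cells and from 19 to 368 in plasmacytoid dendritic cells. With no filter, calls in pericytes and smooth muscle cells went from 13 to 403. Of their Ptgs2 UMIs, Nlrp3-/- replicate 1 held 173 and the other Nlrp3-/- libraries 24 and 13. Members lower in a type went from 16 to 8 with free RNA subtracted. The cause was not tested.

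Sign changes were these. With the replicate block Ptgs2 became 0.069 in macrophages, -1.09 in neutrophils and 0.13 for mesenchymal cells, where it was 0.034 with set-aside clusters kept. Without a change of sign, the block also moved Ptges to -1.51 in macrophages and Ptgis to 0.15 for mesenchymal cells. Without wild-type replicate 3, Ptgs2 was 1.02 in macrophages and 0.78 in mesenchymal cells, Ptges 0.98 in macrophages and Ptger4 0.19 in mesenchymal cells. Without wild-type replicate 2, Ptger4 was 0.093 in macrophages and Ptges 0.15 in mesenchymal cells, and without wild-type replicate 1 Ptgs2 was -0.20 in neutrophils. Without Nlrp3-/- replicate 1, Ptgs1 was 0.088 in macrophages and 0.095 in neutrophils, Ptgs2 -2.08 and Ptger2 -0.25 in neutrophils, Ptgs2 0.04 in mesenchymal cells and Ptger4 0.07 in macrophages. Without Nlrp3-/- replicate 2, Ptgs2 was 0.07, Ptges 0.44 and Ptger4 0.0057 in macrophages, Ptgis -0.50 in mesenchymal cells and Ptger3 -0.18 in mast cells and basophils. Without Nlrp3-/- replicate 3, Ptges was 0.44 in macrophages. Ptger4 in macrophages was 0.019 at 5% mitochondrial UMIs and 0.0036 with free RNA subtracted.

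At the other end of their range with 1 library left out, the same values were -0.54 for Ptgs1, -0.82 for Ptgs2, -2.97 for Ptges and -0.11 for Ptger4 in macrophages, -0.32 for Ptgs1, 0.66 for Ptgs2 and 0.47 for Ptger2 in neutrophils, -0.47 for Ptgs2, -0.29 for Ptges, 0.79 for Ptgis and -0.63 for Ptger4 in mesenchymal cells and 0.90 for Ptger3 in mast cells and basophils.

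Over all genes, calls in macrophages were 57 as reported, 569 by DESeq2, 376 with no filter, 36 with the replicate block and 25 to 2522 with 1 library left out. In neutrophils they were 42, 241, 159, 12 and 13 to 303, and in mesenchymal cells 15 and, by DESeq2, 249, with 4 under the block and 4 to 674 with 1 library left out. The replicate numbers share only a number: in no type did all 3 pairs of same-numbered libraries correlate above 0.1 in their deviations from the group means, and in none did every library correlate best with its own number. Leaving out Hpgd in macrophages and their subsets, no member was called between the genotypes with or without the block, and Fpr2 was called with it (edgeR adjusted p = 0.0266). Subsets were not run with a library left out, and 14 or 15 of the 16 alternatives gave a value for Ptger3 in mast cells and basophils, Hpgd in pericytes and smooth muscle cells and Ptger4 in plasmacytoid dendritic cells. With 3 libraries a group and Ptger3 at 448 UMIs in all, small differences may have been missed, and the size that could be detected for the members was not tested.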

Other observations

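Hpgd was also found in cells that carry no type name. In the cells set aside, Nlrp3-/- replicate 1 had 300 UMIs of Hpgd in 10140 cells, at 15.4 CPM. In cells of mixed markers Hpgd was at 54.7, 81.0 and 17.7 CPM in the wild-type and 11.4, 11.7 and 14.5 CPM in the Nlrp3-/- libraries. These values came from 136, 238 and 43 against 42, 17 and 21 UMIs, which are not in the levels of the named types above. Pla2g4a was at 11.5, 14.2 and 19.4 CPM in wild-type and 26.0, 32.9 and 28.8 CPM in Nlrp3-/- neutrophils, without overlap (log2 fold change 0.69, SE 0.17, edgeR adjusted p = 0.21), the order seen in macrophages, and was named after its values were seen. The low oxygen response genes summed in mature neutrophils to 771, 947 and 1954 CPM in wild-type and 2361, 1086 and 1089 CPM in Nlrp3-/- libraries, highest in the libraries where Ptgs2 was highest in those cells. This was also so in macrophages and cDCs. In all wild-type neutrophils the list was highest in replicate 3 (944, 1084 and 1418 CPM) and Ptgs2 in replicate 2, while the Nlrp3-/- libraries matched. In mesenchymal cells it was highest in wild-type replicate 1 (1049 CPM) and Nlrp3-/- replicate 2 (2190 CPM), and Ptgs2 in replicate 3 of each group. Its part in the Ptgs2 levels was not tested.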
